A study of Homo sapiens with 3 samples.

Results

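RMRP, the RNA of RNase P (RPPH1), 7SL RNA (genes RN7SL1 and RN7SL2), 7SK RNA (RN7SK) and telomerase RNA (TERC) are structured RNAs, each of which works inside a protein particle. RMRP is the RNA of RNase MRP, which cuts precursor ribosomal RNA, and RPPH1 is the RNA of RNase P, which removes the 5′ leader of precursor tRNAs. 7SL RNA is the scaffold of the signal recognition particle, which brings nascent secreted proteins to the endoplasmic reticulum. 7SK RNA holds the elongation factor P-TEFb in an inactive state, and TERC carries the template with which telomerase extends chromosome ends. All but TERC are transcribed by RNA polymerase III, and the human genome holds many partial copies of 7SL and some of 7SK. RMRP has also been reported to serve TERT, the telomerase reverse transcriptase, as a template for a double-stranded RNA that DICER cuts.

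DICER is the RNase III enzyme that releases small RNAs from double-stranded precursors. Its RNA contacts were mapped by PAR-CLIP, in which a photoreactive uridine analogue in the RNA is crosslinked to the bound protein and then read as a T-to-C conversion after sequencing. The single group was FLAG-DICER with RNase T1: 3 replicates of an HEK293 line (FLAG:DICER Flp-In HEK293 T-Rex), an established embryonic kidney line that carries a FLAG-tagged DICER transgene in an inducible system. The labels give no induction, dose, time or separate cultures, so the spread between replicates may be technical, and with neither an untagged control nor RNA abundance at hand, contact and abundance cannot be told apart.

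Clusters are stretches of overlapping reads called by the authors at an estimated false discovery rate of 5%. Those listed for these RNAs were the clusters whose sense annotation names 1 of the 6 genes, called gene loci below, and the clusters annotated as a 7SL or 7SK repeat elsewhere in the genome, called copies. They numbered 51 of 11577 clusters in replicate 1, 30 of 18065 in replicate 2 and 19 of 5099 in replicate 3, and 35 of 8469 in a series-wide list, whose clusters draw reads from 2 or 3 replicates. Each of the 4 lists held 8 clusters at gene loci, while copies gave 43, 22 and 11 clusters in replicates 1, 2 and 3 and 27 in the series-wide list. The lists held 1306125, 1060791 and 595487 conversions and 109404, 111514 and 29416 distinct reads in replicates 1, 2 and 3, with 18.6, 17.8 and 33.8 reads per distinct read. The median cluster had 13, 5 and 18 conversions and 3, 2 and 2 distinct reads in the same order.

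RMRP, RPPH1, RN7SL1 and RN7SL2 were each listed with a sense cluster in every replicate, and RN7SK and TERC had none in any list. This is 4 of 6 genes, against 20.2% of the 9936 gene symbols that any replicate list names and 2.12% of the 1370 small structured RNA symbols of the RefSeq table. The 9936 symbols leave out genes that no list names, such as RN7SK and TERC, and count intron clusters too. Neither background is matched for expression, and the 6 genes were chosen with earlier results known, so these shares do not test enrichment. The same 4 genes of 6 were also in the series-wide list. No list held a cluster on the strand opposite any of the 6 genes, RMRP included. A missing cluster says only that none was called above the authors' threshold.

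RMRP was covered over nearly all of its length in replicate 1 and over 1 short stretch in replicate 3. Its clusters lay on hg19 chromosome 9, minus strand, between 35657747 and 35658016, a span of 270 nt. In the files' annotation the outermost clusters reach the start and the end of the transcript, and the files name a second gene, RP11-331F9.10, on the same strand. RMRP carried 234 conversions from 60 distinct reads in replicate 1, 141 from 50 in replicate 2 and 41 from 4 in replicate 3. Replicate 3 was lowest by both counts. As a share of each list, RMRP held 0.0179%, 0.0133% and 0.00689% of conversions in replicates 1, 2 and 3, a mean of 0.0127% ± 0.00554 (SD, n = 3). Clusters covered 92.2%, 75.9% and 12.2% of the span.

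Within RMRP the 5′ end and the body were separate clusters. Counted from the 5′-most covered base, the 5′ cluster reached from position 1 to position 42 in replicate 1 and to position 65 in replicate 2. Replicate 1 had 74 conversions there, replicate 2 had 32 and replicate 3 had no cluster. The centre position given by the authors was 23 in replicates 1 and 2 and in the series-wide list, where this cluster had 93 conversions. The body cluster spanned positions 64 to 270 in replicate 1, 94 to 233 in replicate 2 and 112 to 144 in replicate 3. Its conversions were 160, 109 and 41 in replicates 1, 2 and 3, with 44, 34 and 4 distinct reads. This stretch had more conversions than the 5′ end in each replicate that had both, by counts not corrected for length. It was also the longer, at 207 nt against 42 nt in replicate 1 and 140 nt against 65 nt in replicate 2. Its centre was at position 132 in replicates 2 and 3 and at 109 in replicate 1 and in the series-wide list, where it had 266 conversions. In replicate 3 all 41 conversions lay at 1 converted position.

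RPPH1 carried a string of shorter clusters, and replicate 3, lowest for RMRP, had the most conversions and the fewest distinct reads here. They lay on hg19 chromosome 14, minus strand, between 20811230 and 20811572, a span of 343 nt whose outermost clusters again reach the annotated start and end. RPPH1 had 126 conversions in 4 clusters in replicate 1, 46 in 4 clusters in replicate 2 and 156 in 5 clusters in replicate 3. The share of conversions was 0.00965%, 0.00434% and 0.0262% in replicates 1, 2 and 3, a mean of 0.0134% ± 0.0114 (SD, n = 3), and the distinct reads were 66, 30 and 21. Per 100 nt of span, RPPH1 had 36.7, 13.4 and 45.5 conversions and RMRP 86.7, 52.2 and 15.2 in replicates 1, 2 and 3. RMRP was the higher of the pair in replicates 1 and 2 and the lower in replicate 3, so the replicates give these RNAs no common order.

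The stretches at both ends and in the middle of RPPH1 were found in every replicate. At the 5′ end (positions 1 to 49) there were 81, 23 and 53 conversions in replicates 1, 2 and 3, with centres at positions 4, 20 and 27. The middle stretch (positions 99 to 203) had 15, 14 and 16 conversions from 13, 7 and 2 distinct reads, with the centre at position 176 in replicates 2 and 3 and at 143 in replicate 1. The 3′ stretch (positions 215 to 343) had 29, 9 and 81 conversions from 22, 10 and 13 distinct reads. It was 1 cluster in replicate 1 and 2 clusters in each of replicates 2 and 3, and position 319 was a centre in replicates 1 and 2 and in the series-wide list. A weak cluster between positions 53 and 98 had 1 conversion in replicate 1 and 6 in replicate 3 and was not listed in replicate 2. The plots of conversions by stretch and of the cluster maps show these stretches side by side.

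**Figure D1:**
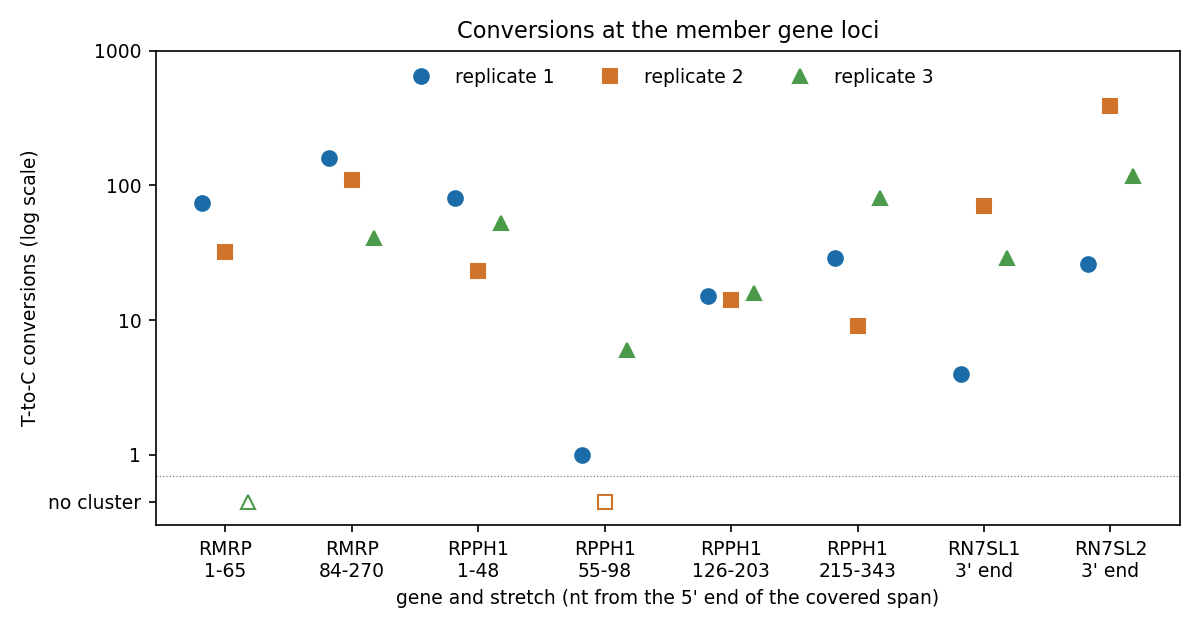
T-to-C conversions (log scale) in each replicate for the stretches of RMRP and RPPH1 and for the 3′ ends of RN7SL1 and RN7SL2; open symbols below the dotted line mark a replicate with no cluster, and stretches are labelled by the bounds of the series-wide cluster. The RPPH1 stretch labelled 126-203 has 14 to 16 conversions, while RN7SL2 runs from 26 to 390. Counts are not divided by each list's total, and that RPPH1 stretch rests on 13, 7 and 2 distinct reads in replicates 1, 2 and 3.

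**Figure D2:**
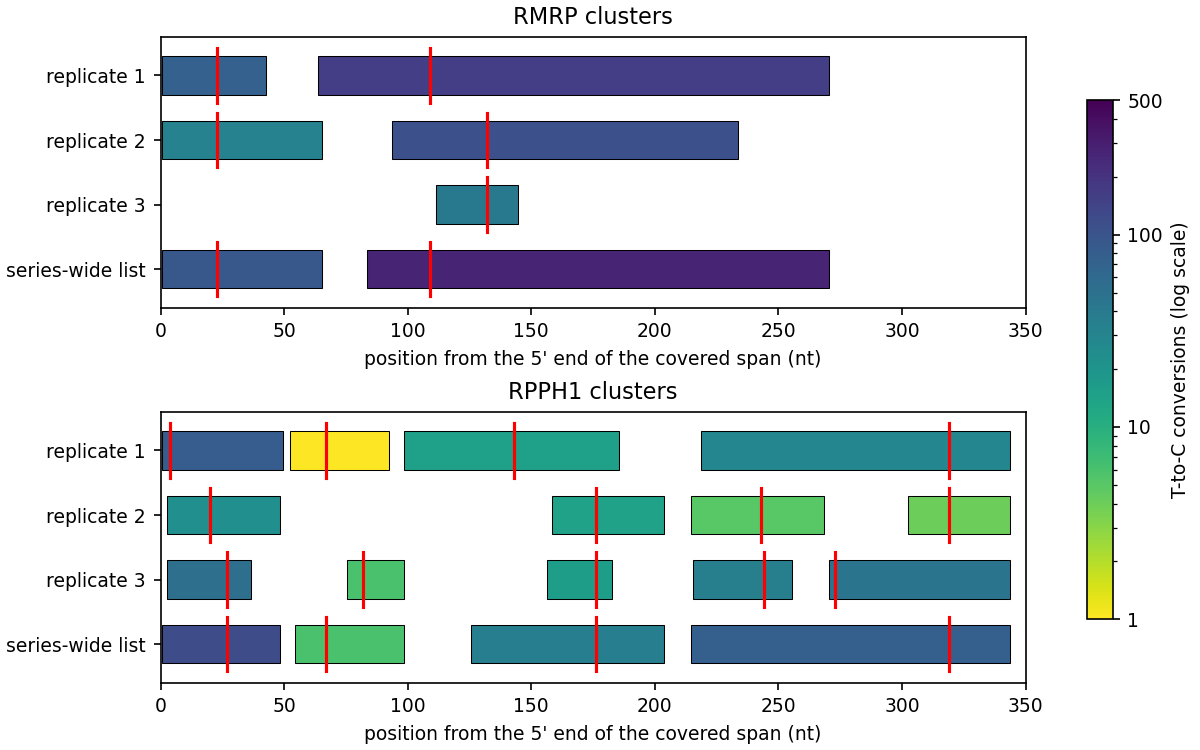
Clusters along RMRP and RPPH1 in the 3 replicates and the series-wide list, by position in nt from the 5′ end of the covered span; bars are clusters, their colour gives T-to-C conversions on a log scale and red ticks mark the authors' centre positions. The RMRP 5′ cluster is missing in replicate 3, and the RPPH1 clusters at both ends appear in every list.

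Clusters of the 7SL genes were listed at their 3′ ends alone. RN7SL2 had a cluster on hg19 chromosome 14, minus strand, within 50329265 to 50329316 (52 nt), and RN7SL1 had one on chromosome 14, plus strand, within 50053562 to 50053599 (38 nt). Each spans the annotated 3′ end of its gene in every list. RN7SL1, RN7SL2 and the copies share much of their sequence, so the assignment of reads among them is uncertain, and the RN7SL1 cluster also carries the name RN7SL593P. Whether reads from the rest of these genes could be placed was not tested, so the missing clusters there do not show missing contact.

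RN7SL2 conversions numbered 26 in replicate 1, 390 in replicate 2 and 118 in replicate 3, from 10, 49 and 6 distinct reads. Replicate 2 stood far above the others, and its cluster ranked 135 by conversions in that list. The share of conversions was 0.0195% ± 0.0174 (SD, n = 3). RN7SL1 had 4, 70 and 29 conversions in replicates 1, 2 and 3, from 14, 25 and 10 distinct reads, again with replicate 1 lowest and replicate 2 highest. This order is the reverse of that of RMRP for replicates 1 and 3. RN7SL1 held 0.00393% ± 0.00325 of conversions (SD, n = 3).

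By distinct reads the order of the 7SL genes changed between replicates, with 0.00914%, 0.0439% and 0.0204% of all distinct reads for RN7SL2 in replicates 1, 2 and 3 and 0.0128%, 0.0224% and 0.0340% for RN7SL1. Reads numbered 47, 478 and 118 at RN7SL2 and 66, 199 and 137 at RN7SL1, so RN7SL2 had more reads in replicate 2 alone. In conversions per read RN7SL2 was the higher in each replicate. RN7SL2 had 55.3, 81.6 and 100 conversions per 100 reads in replicates 1, 2 and 3, and RN7SL1 had 6.06, 35.2 and 21.2. These values do not overlap between the genes. The difference of RN7SL2 minus RN7SL1 was 58.17 ± 17.95 conversions per 100 reads, in 3 of 3 replicates (SD, n = 3; two-sided exact sign-flip p = 0.25, adjusted p = 0.333 over 4 tests, where 0.25 is the smallest p that 3 replicates allow). It was chosen after its values were seen, and differences in the uridines that each read covers were not tested. In the replicate lists the centre lay 37 nt before the 3′-most covered base in RN7SL2 in replicates 2 and 3 and 4 nt before it in replicate 1. For RN7SL1 it lay 3 nt before that base in replicates 1 and 2 and 29 nt before it in replicate 3.

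At the 4 genes together the summed share of distinct reads was nearly the same in every replicate, while the share of conversions and the shares of the single genes were not. Conversions at the gene loci numbered 390, 647 and 344 in replicates 1, 2 and 3. They held 0.0299% of conversions in replicate 1 (95% exact Clopper-Pearson interval 0.0270 to 0.0330), 0.0610% in replicate 2 (0.0564 to 0.0659) and 0.0578% in replicate 3 (0.0518 to 0.0642), a mean of 0.0495% ± 0.0171 (SD, n = 3). Replicate 1 lay below the others beyond these intervals, which cover counting error only, since repeated reads are not separate molecules. By distinct reads they held 0.137% (0.116 to 0.161), 0.138% (0.117 to 0.162) and 0.139% (0.100 to 0.189) in replicates 1, 2 and 3. These values lie much closer together than the intervals are wide, so their agreement is no measure of precision. RMRP held 0.0548%, 0.0448% and 0.0136% of distinct reads and RPPH1 0.0603%, 0.0269% and 0.0714% in the same order, so single genes moved in different directions within that sum. Among their clusters, 6 of 8 in replicate 1, 7 of 8 in replicate 2 and 7 of 8 in replicate 3 overlapped a cluster of both other replicates by at least 1 nt, against 11.8%, 7.51% and 27.9% of all clusters in those lists. That background is not matched for depth or length. The median cluster at gene loci had 15, 14.5 and 4 distinct reads, against 3, 2 and 2 over all clusters. Its length was 45.5, 49 and 35.5 nt, against 32, 29 and 27 nt. Overlapping clusters at gene loci had the same centre in 3 of 9 pairs between replicates 1 and 2, in 0 of 8 between 1 and 3 and in 3 of 7 between 2 and 3, against 45.9%, 46.9% and 53.2% of all overlapping pairs.

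Most copies had a cluster in 1 replicate. They lay at 55 loci in the replicate lists, 51 of 7SL and 4 of 7SK, and 5 further loci were in the series-wide list alone. Among 7SL loci, 4 were found in every replicate, 12 in 2 replicates and 35 in 1. Among 7SK loci, 1 was found in 2 replicates and 3 in 1. A cluster was found in replicate 1 alone at 27 loci, in replicate 2 alone at 7 and in replicate 3 alone at 4. Over all clusters, 11.8%, 7.51% and 27.9% of those in replicates 1, 2 and 3 overlapped a cluster of both other replicates. Most clusters of any kind were thus not shared by all replicates, so this is no trait of the copies. Over all lists, 46 of 60 loci carry the name of an RN7SL or RN7SK gene or pseudogene, 17 lie inside a host gene on the same strand and 13 lie opposite an annotated gene. The median copy cluster had 6, 5.5 and 11 conversions in replicates 1, 2 and 3, against 13, 5 and 18 over all clusters. Its distinct reads were 5, 5 and 2, against 3, 2 and 2 over all clusters.

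RN7SL559P, a 7SL pseudogene inside EYA3 (hg19 chromosome 1, 28358593 to 28358629, minus strand), was the copy with the most reads in each replicate. It had 85 conversions among 1409 reads in replicate 1, 88 among 1207 in replicate 2 and 64 among 720 in replicate 3, with 129, 129 and 50 distinct reads. Its reads were thus seldom converted, at 6.03, 7.29 and 8.89 conversions per 100 reads in replicates 1, 2 and 3, and T-to-C made up 41.1%, 66.7% and 66.7% of the edits listed there.

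The other copies with a cluster in all 3 replicates were lower in reads. RN7SL634P lies inside TDRD9 (chromosome 14, 104480050 to 104480077, plus strand). Its conversions were 29, 19 and 11 in replicates 1, 2 and 3, with the same centre, 104480055, in each. RN7SL217P, inside CAMKV (chromosome 3, 49901008 to 49901043, minus strand), had 12, 23 and 6. RN7SL272P (chromosome 13, 28563637 to 28563663, minus strand), in no annotated host gene, had 8, 22 and 16. No replicate was highest at all of these copies. Among the 7SK copies, RN7SKP37 (chromosome 10, 22222085 to 22222126, plus strand, opposite DNAJC1) had 1 conversion in replicate 1, 12 in replicate 2 and no cluster in replicate 3. RN7SKP37 and RN7SL284P were named after their values were seen. RN7SL284P, inside DLG5, had 122 conversions in the series-wide list but 2 in replicate 3 and no cluster in the other replicates, so the series-wide list is not a sum of the replicate lists.

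**Figure D3:**
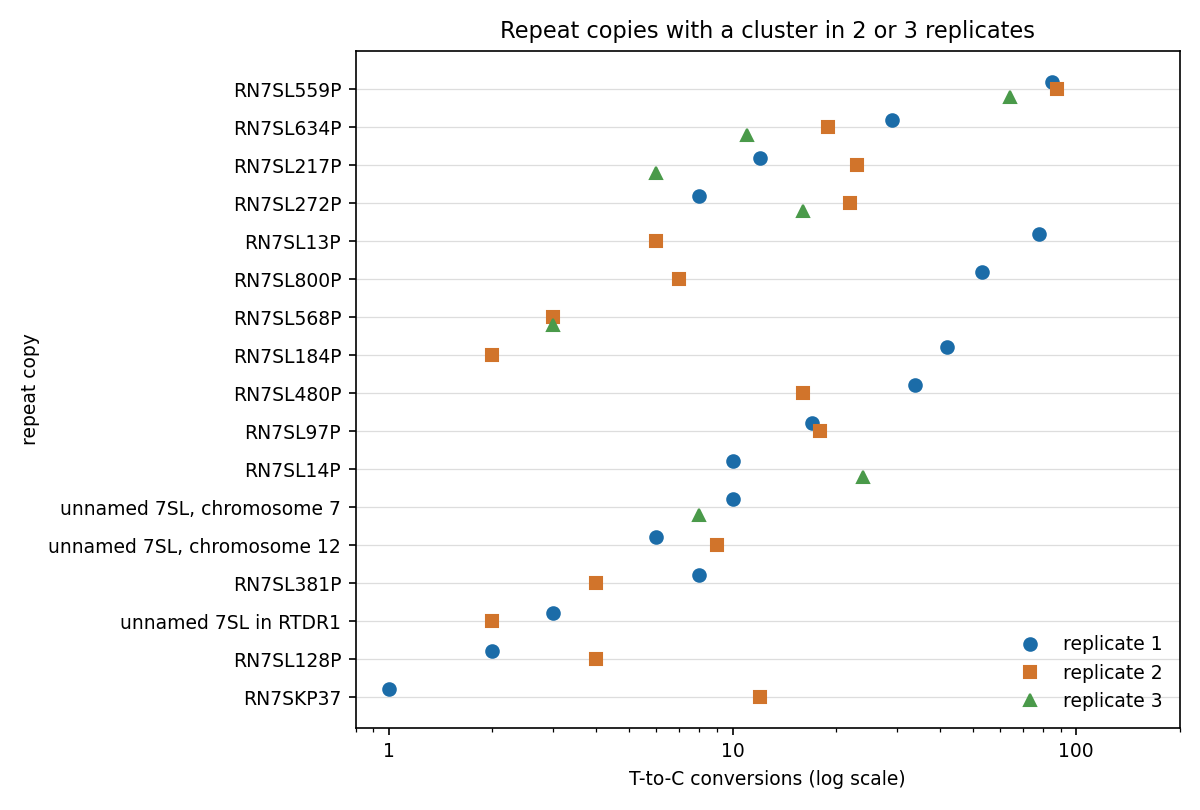
T-to-C conversions (log scale) of the 17 repeat copies with a cluster in 2 or 3 replicates, 1 row per copy and 1 symbol per replicate; a missing symbol is a replicate with no cluster. The 4 copies at the top have a symbol in every replicate, and RN7SKP37 at the bottom is the only copy of 7SK.

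Few copy clusters were shared by all replicates, unlike those at the gene loci. Clusters on copies overlapped a cluster of both other replicates in 4 of 43 cases in replicate 1, 4 of 22 in replicate 2 and 4 of 11 in replicate 3, that is 9.30%, 18.2% and 36.4%, against 11.8%, 7.51% and 27.9% of all clusters. These shares lie on both sides of the background. The median copy cluster was shorter than that at gene loci (30, 31 and 25 nt against 45.5, 49 and 35.5 nt). It also had fewer distinct reads (5, 5 and 2 against 15, 14.5 and 4), and the overlaps were not matched for either. Where copy clusters did overlap, 9 of 14 pairs between replicates 1 and 2, 2 of 6 between 1 and 3 and 3 of 5 between 2 and 3 had the same centre. The strand opposite a copy held 1, 2 and 1 clusters in replicates 1, 2 and 3 and none in the series-wide list.

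Gene loci and copies differed in their share of conversions in each replicate, but not in 1 direction. Gene loci held 0.0299%, 0.0610% and 0.0578% in replicates 1, 2 and 3, and copies held 0.0426%, 0.0240% and 0.0344%. Gene loci were higher in replicates 2 and 3 and lower in replicate 1. Exact 95% intervals did not overlap in any replicate, but they count each conversion as independent. Repeated reads are not separate molecules, so these intervals are too narrow to set the groups apart. The mean difference of gene loci minus copies was 0.0158 percentage points ± 0.0257 (SD, n = 3; two-sided exact sign-flip p = 0.5, adjusted p = 0.5), smaller than its spread. By distinct reads gene loci held 0.138% ± 0.00114 and copies 0.295% ± 0.0749 (SD, n = 3), and the difference turned to -0.157 percentage points. The SD of the gene loci is far below the width of their exact intervals in single replicates.

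Summed over clusters, gene loci had more conversions per 100 reads than copies in each replicate, and the size of that difference rested on RN7SL559P. Gene loci had 46.2, 72.0 and 68.7 conversions per 100 reads in replicates 1, 2 and 3, and copies had 16.7, 16.3 and 23.8. The difference of 43.3 ± 13.2 was seen in 3 of 3 replicates (SD, n = 3; two-sided exact sign-flip p = 0.25, adjusted p = 0.333) and was chosen after its values were seen. Without RN7SL559P, copies had 24.6, 47.0 and 100 conversions per 100 reads and the difference was 5.05 ± 31.6, with gene loci lower than copies in replicate 3. T-to-C made up 92.3% ± 8.52 of edits at gene loci, 71.6% ± 17.6 on copies and 75.7% ± 5.19 over all clusters (SD, n = 3).

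**Figure D4:**
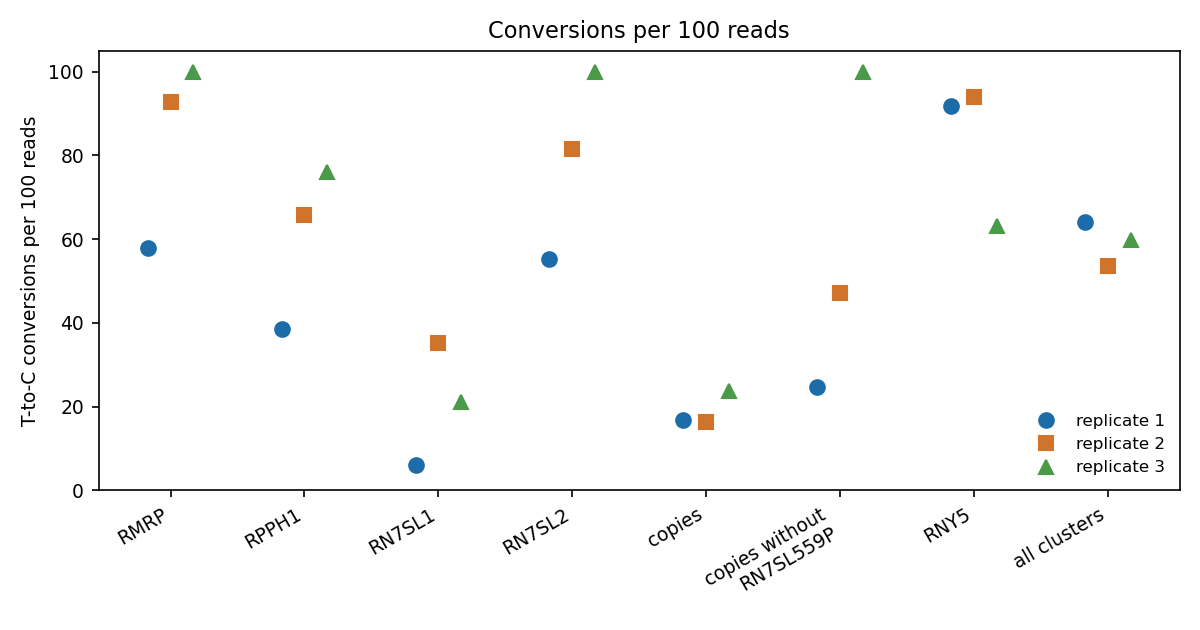
T-to-C conversions per 100 reads in each replicate for the 4 genes, the copies with and without RN7SL559P, RNY5 and all clusters. RN7SL1 lies below RN7SL2 in every replicate, and leaving out RN7SL559P moves the copies of replicate 3 to 100, a value from 22 distinct reads.

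Among other RNAs made by RNA polymerase III, RNY5 and the vault RNAs held larger shares of conversions in each replicate. RNY5, a Y RNA of the Ro particle, held 0.138%, 0.144% and 0.0719% of conversions in replicates 1, 2 and 3. The difference of the 4 gene loci minus RNY5 was -0.0684 percentage points ± 0.0487, lower in 3 of 3 replicates (SD, n = 3; two-sided exact sign-flip p = 0.25, adjusted p = 0.333), a comparison also chosen after its values were seen. By distinct reads it was -0.00413 ± 0.0375 with no common direction, gene loci holding 0.137%, 0.138% and 0.139% and RNY5 0.181%, 0.137% and 0.109%. Vault RNA genes VTRNA1-1, VTRNA1-2 and VTRNA1-3 together held 27.0% ± 10.8 of conversions and 7.69% ± 1.82 of distinct reads (SD, n = 3), above the gene loci in each replicate by both measures. RNY1, another Y RNA, held 0.000306%, 0.0213% and 0.0168% of conversions in replicates 1, 2 and 3, below RMRP and RPPH1 in replicate 1 and above both in replicate 2.

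**Figure D5:**
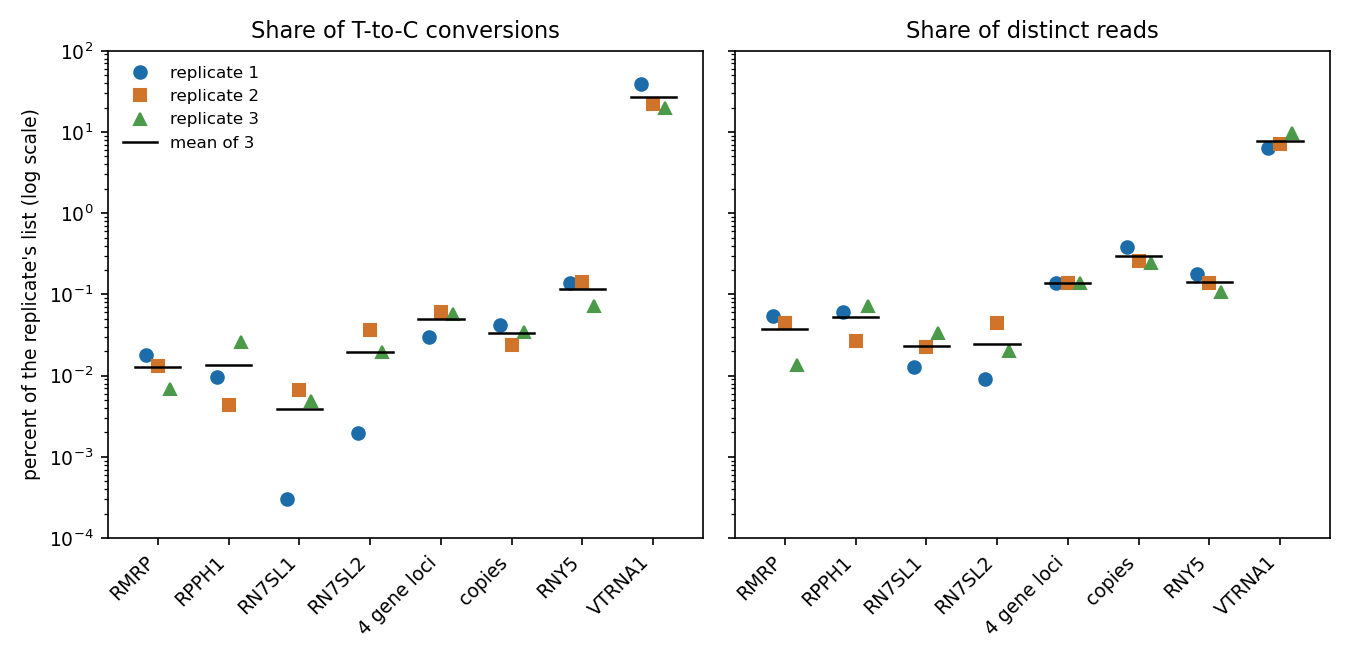
Percent of each replicate's T-to-C conversions (left) and distinct reads (right), both on a log scale, held by the 4 genes singly and together, the copies, RNY5 and the VTRNA1 genes; bars mark the mean of 3 replicates. The 4 gene loci together sit at 0.137% to 0.139% of distinct reads, where RNY5 runs from 0.109% to 0.181%, and below RNY5 in conversions in each replicate. The exact 95% interval of the gene loci by distinct reads was 0.100% to 0.189% in replicate 3.

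mRNAs of proteins that work with these RNAs, not all of which bind them, were seldom found in every replicate. Of 34 genes for subunits of RNase P and MRP, the signal recognition particle and its receptor, the 7SK and telomerase particles and the La protein, an exonic sense cluster was listed for 11, 12 and 5 in replicates 1, 2 and 3, against 17.2%, 21.4% and 7.85% of 20056 protein-coding RefSeq symbols. It was listed in all 3 for 1, against 4.31% of those symbols, a count near the background. In at least 1 replicate such a cluster was found for 17 of 34, against 28.3% of those symbols, a background that is not matched for expression or length. These were 4 of 11 RNase P and MRP genes and 5 of 8 genes of the signal recognition particle and its receptor. They also included 5 of 7 genes of the 7SK particle and 3 of 7 telomerase genes, without SSB, which encodes La.

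The gene found in all 3 was CCNT1, which encodes cyclin T1 of P-TEFb, the factor held by 7SK. It had 183 conversions in 10 clusters in replicate 1, 43 in 6 clusters in replicate 2 and 29 in 1 cluster in replicate 3. All of these were in the 3′ UTR except 1 coding cluster in replicate 2. The cluster of replicate 3 (hg19 chromosome 12, 49086530 to 49086559, minus strand) overlapped none of those of replicates 1 and 2, and it rested on 2 distinct reads. TERT, named for its reported pairing with RMRP, had no cluster in any list.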

How the data were processed

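The lists, 1 per replicate, and 1 series-wide list of clusters were deposited. Bowtie2 2.1.0 and the hg19 build appear in the submitters' processing notes; for the cluster caller the sources used here give no version. There were 2 sequencing runs for every replicate, per the labels. The main value is a count deposited per cluster, that of T-to-C conversions, which the authors did not normalise to depth; the deposited entropy score was not used. Reads, distinct reads, edits, centre positions and annotation came from the attribute text deposited by the authors. The rule behind the centre position, the read mapping classes and the length filter named per the file headers is not given there.

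Conversions were divided by each list's total over listed clusters, which is not the sequencing depth. Overlap meant at least 1 nt on the same strand. Clusters at gene loci were kept out of the copies. Differences within replicates were tested with an exact permutation test (sign flips, two-sided) and Benjamini-Hochberg adjustment over 4 tests, and the calculations were tested on simulated data (Python 3.11.15, pandas 2.3.3, numpy 2.4.6). Names were matched to the RefSeq table of GRCh38.p14, whose coordinates were not used; all 6 RNA genes and 34 partner genes matched. Named were all member genes and their clusters, copies overlapped in all 3 replicates, partner genes with a cluster in all 3 and a few other small RNAs. The members and lists were chosen with earlier results of these data known. Sequences of these RNAs were not used here.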

Additional observations from a re-analysis of the deposited data

How the results depend on the processing

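Over 57 alternative values, 41 kept their direction or size, 13 moved and 3 turned. A difference counted as kept when its mean kept its sign, even where it shrank or lost a common direction. The difference of gene loci minus copies in conversion share (0.0158 percentage points) turned to -0.157 by distinct reads, -0.0639 by reads and -0.0311 with the 7SL genes counted as copies; without 1 replicate it ran from 0.00528 to 0.0302. The share of the gene loci was 0.138% by distinct reads and 0.0438% to 0.0594% without 1 replicate. That of the copies was 0.295% by distinct reads, 0.110% by reads, 0.0441% of a total without the top cluster and 0.0572% with the 7SL genes included; without 1 replicate it ran from 0.0292% to 0.0385%. The mean share of copy clusters overlapped in every other replicate (21.3%) was 39.6% ± 52.4 (SD, n = 3) among clusters with 3 or more distinct reads. Few copy clusters of replicate 3 remained there, since 81.8% of them had 2 distinct reads. Without 1 replicate the share was 34.1% to 48.1%, highest without replicate 3. That setting asks for overlap in 1 other list instead of both and can only raise each list's share, so it is no check of stability. Partner genes with a cluster in all replicates (1) numbered 0 with 3 or more distinct reads, 11 in the series-wide list, 2 with introns, 2 without replicate 1 or 2 and 8 without replicate 3. With introns or without 1 replicate this number can only stay or rise. Among comparisons chosen after seeing the data, gene loci minus copies was 5.05 conversions per 100 reads without RN7SL559P, against 43.3 with it, and gene loci minus RNY5 was -0.00413 percentage points by distinct reads, neither with 1 direction in all replicates. RN7SL2 minus RN7SL1 ran from 47.8 to 64.1 conversions per 100 reads without 1 replicate, gene loci minus copies from 37.1 to 50.3, and gene loci minus RNY5 from -0.0955 to -0.0484 percentage points. The 4 genes with a cluster in every list did not change in number. Adding the opposite strand or leaving out 1 replicate could not lower this number. It could not rise either, since RN7SK and TERC had no cluster on either strand. Those settings are thus no check of stability, although they are among the 41 values counted as kept. With 1 group, no replicate block between groups was fitted; the differences tested were taken within replicates. At gene loci, 4 to 66 distinct reads per gene limit every value.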
